A study of Mus musculus with 8 samples.

Results

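The genes described here are the class I genes of the mouse major histocompatibility complex (MHC) and the genes that load them with peptide, as measured in hippocampi of the BTBR and B6 strains. They were chosen by name: every non-control probe whose gene name on the array was H2-K1, H2-D1, H2-Bl, H2-Q2, H2-T22, H2-T23, B2m, Tap1, Tap2 or Tapbp. This gave 9 genes of the 18399 with a tested probe, and 18 of the 41174 non-control probes, since no probe carried the name H2-D1. All 18 probes were well above background on the 4 arrays of each strain and were among the 27982 probes tested.

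The study compared the hippocampal transcriptome of BTBR mice, an inbred strain used as a model of autism spectrum disorder, with that of B6 mice. B6 was the wild type C57BL/6J strain and BTBR was labeled BTBR T+ Itpr3tf/J, and all 8 mice were labeled male, 5 months old and untreated, with 4 mice in each strain. The strain background field gives C57BL/6J for the BTBR mice as well, but their titles, sources and genotypes all name BTBR. RNA of the whole hippocampus of 1 mouse was hybridized to each single-color array, with replicates 1 and 2 of both strains on slide 1 and replicates 3 and 4 of both strains on slide 2. Values are quantile normalized log2 intensities, a difference is BTBR minus B6, and a probe is said to be called where the adjusted p of limma over all tested probes was under 0.05.

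A class I molecule is a heavy chain, encoded by an H2 gene, that is held at the cell surface together with β2-microglobulin and a short peptide from inside the cell. The TAP transporter carries peptides into the endoplasmic reticulum, tapasin bridges TAP to the empty heavy chain, and CD8 T cells and natural killer cells read the loaded complex. In the brain, class I molecules are also known for roles in synapse refinement and plasticity, and H2-K1 and H2-D1 are the classical heavy chains while the Q and T region genes are nonclassical.

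The heavy chain genes are close relatives, so a selection of their probes is shown, called and uncalled, 3 of them beside the nearest neighbor on the array. The H2-T22 probe at base 1654, which carried the lowest adjusted p of the set, is described by its position and values and is not printed. Each probe is 60 bases long, is read 5′ to 3′ and is named by its gene and by the base of the transcript at which the array file starts it. Capitals mark bases identical to the partner named after the gene in the best ungapped overlap; a probe wholly in lower case had no partner with at least 28 identical bases at 75% identity or more.
H2-Bl 313, beside H2-K1: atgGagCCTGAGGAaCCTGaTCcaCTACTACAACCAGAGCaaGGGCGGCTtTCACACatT
H2-K1 364, beside H2-Bl: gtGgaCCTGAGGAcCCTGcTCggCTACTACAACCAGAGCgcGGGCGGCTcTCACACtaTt
H2-Q2 896, beside H2-L: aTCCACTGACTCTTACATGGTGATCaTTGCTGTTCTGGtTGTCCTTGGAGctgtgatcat
H2-L 883, beside H2-Q2: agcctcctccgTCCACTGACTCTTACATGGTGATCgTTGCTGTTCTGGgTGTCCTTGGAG
H2-K1 554, beside H2-Q10: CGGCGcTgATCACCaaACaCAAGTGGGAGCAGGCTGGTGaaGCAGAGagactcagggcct
H2-Q10 497, beside H2-K1: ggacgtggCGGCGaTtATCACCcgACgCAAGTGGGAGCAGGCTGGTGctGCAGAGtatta
H2-Q2 608: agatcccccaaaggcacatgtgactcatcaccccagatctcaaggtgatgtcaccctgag
H2-T22 768: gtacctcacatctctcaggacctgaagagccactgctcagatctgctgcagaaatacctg
H2-T22 1128: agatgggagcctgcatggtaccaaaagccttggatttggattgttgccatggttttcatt

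The H2-Bl probe shared 46 of 59 overlapping bases with the H2-K1 probe at base 364, and the H2-Q2 probe at base 896 shared 47 of 50 with the H2-L probe at base 883. The H2-K1 probe at base 554 shared 40 of 52 bases with an H2-Q10 probe, and the H2-T23 probe shared 50 of 59 with the H2-Q7 probe. None of the 3 H2-T22 probes and not the H2-Q2 probe at base 608 had such a partner among the 41174 probes. The H2-K1 probes at bases 1405 and 1488 shared 49 of 57 bases, and the file lists no RefSeq transcript for the former. Each H2-T22 probe lists, beside the H2-T22 transcript, a second RefSeq transcript that matched no gene in the table used here. Signal from close relatives could not be told apart where probes were this alike. Probes were compared with other probes and not with whole transcripts, so a probe without a partner may still read a relative. Whether the strains differ in sequence under the probes was not tested, so each difference below is one of probe signal.

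Probes of class I genes differed in opposite directions between the strains. Of the 18 probes, 2 were called higher in BTBR, H2-Bl and 1 of 2 H2-Q2 probes, and 2 were called lower, both of H2-T22. Over all tested probes limma called 7.67%, 3.33% higher and 4.33% lower, and with so few probes the count of 4 is read probe by probe below. The median difference over the 18 probes was 0.02, against 0.01 over all tested probes, with 11 probes higher and 7 lower in BTBR. The arrays of the strains did not overlap at 5 of the 18 probes, compared with 14.2% of all tested probes. Within slide 1 alone limma called 3 of the 18 (8.61% of all tested probes) and within slide 2 alone 1 (3.71%); the strain by slide interaction was called at none, with 2 of the 18 (9.88% of all) at an unadjusted p under 0.05. The rank product, which weighs ranks of fold changes between pairs of arrays, called H2-Bl alone of the 18, and 3.93% of all tested probes. None of the probes of H2-K1, H2-T23, B2m, Tap1, Tap2 and Tapbp was called; 1 of them, a B2m probe, had an unadjusted limma p under 0.05, as did 7 of the 18 in all and 18.5% of all tested probes.

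**Figure D1:**
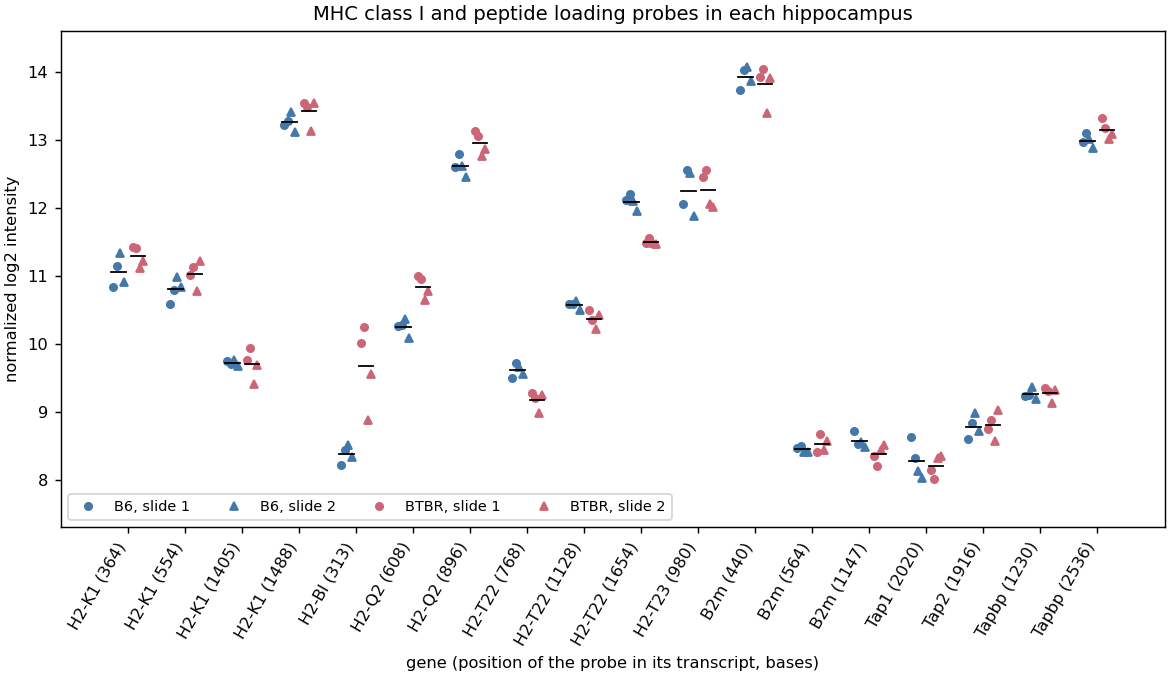
Normalized log2 intensity of each of the 18 probes (x axis, gene and start of the probe in its transcript in bases) in each of the 8 hippocampi, with B6 in blue, BTBR in red, circles for slide 1, triangles for slide 2 and a bar at each strain mean. The strains separate at H2-Bl and at H2-Q2 base 608 with BTBR above, and at the 3 H2-T22 probes with BTBR below.

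Among the heavy chains, H2-Bl differed most. RefSeq lists this gene as a transcribed pseudogene, so its RNA need not give a class I protein. Its probe (NM_008199, mm9 chr17:36220441-36220687, minus strand) read 8.22, 8.43, 8.51 and 8.33 in B6 mice 1 to 4 and 10.01, 10.24, 8.87 and 9.56 in BTBR mice 1 to 4. Every BTBR mouse lay above every B6 mouse, and the spread was wide only in BTBR, where mouse 3 came closest to B6. H2-Bl was 1.30 higher in BTBR, a 2.45-fold change (standard error 0.26, limma adjusted p = 0.0156). Mean spot intensity before normalization ran from 303 to 371 in B6 and was 1214, 1292, 406 and 672 in BTBR mice 1 to 4, over a local background of 34 to 61. The difference was 1.80 on slide 1 (limma adjusted p = 0.00435) and 0.79 on slide 2 (adjusted p = 0.14), and the interaction of strain with slide was not called (adjusted p = 0.461); some choroid plexus and neuronal markers also differed between the strains within a slide, and their part in this value was not tested. H2-Bl was not called without B6 mouse 1 (1.25, adjusted p = 0.053) or without B6 mouse 4 (1.28, adjusted p = 0.0501), and across all 22 alternatives the difference ranged from 0.79 (slide 2 alone) to 2.17 (the scanner's processed signal) and was called in 19.

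A second probe, chosen after its values were seen, lies 3.4 kb from the H2-Bl probe (mm9 chr17:36217089-36217148). It carries the name TC1586030 and is described in the array file as a splice variant Bl.1 of a class I b antigen. It read 8.20, 8.45, 8.32 and 7.80 in B6 mice 1 to 4 and 11.22, 11.57, 9.02 and 10.81 in BTBR mice 1 to 4. BTBR lay wholly above B6, and BTBR mouse 3 was the lowest of its strain. Only 2 of the 4 B6 arrays read this probe well above background, so that it entered the tested set through BTBR alone, and its values are a description without a test.

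H2-Q2, a nonclassical gene of the Q region, was represented by 2 probes that both read higher in BTBR. The probe at base 608 (NM_010392, mm9 chr17:35460007-35460066, plus strand) read 10.26, 10.28, 10.37 and 10.09 in B6 and 11, 10.95, 10.64 and 10.77 in BTBR, mice 1 to 4. All BTBR mice were above all B6 mice, with BTBR mouse 3 again nearest to B6. The difference was 0.59, 1.5-fold (standard error 0.10, limma adjusted p = 0.0059), at 0.71 on slide 1 and 0.47 on slide 2, where it was not called within that slide alone (adjusted p = 0.0819). It was called in each of the 8 fits that left out 1 mouse, with values from 0.54 to 0.66.

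The other H2-Q2 probe, at base 896 (mm9 chr17:35482113-35482172), read 12.60, 12.80, 12.61 and 12.46 in B6 and 13.13, 13.06, 12.77 and 12.86 in BTBR, mice 1 to 4. The strains overlapped narrowly, since BTBR mouse 3 fell just under B6 mouse 2. The difference was 0.34 (standard error 0.10, limma adjusted p = 0.0954) and was called in 1 of 22 alternatives, with slide as a block (adjusted p = 0.0265). The array file places the H2-Q2 probe at base 608 22.1 kb from this one and 1.9 kb from the H2-Q1 probe, and lists for it a second RefSeq transcript that matched no gene in the table used here. The H2-Q1 probe itself differed by -0.01 (limma adjusted p = 0.987).

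H2-T22, a nonclassical heavy chain of the T region known as a ligand of γδ T cell receptors, moved the other way. Its probe at base 1654 (NM_010397, mm9 chr17:36175398-36175457, minus strand) read 12.11, 12.20, 12.10 and 11.95 in B6 and 11.49, 11.56, 11.48 and 11.47 in BTBR, mice 1 to 4. Every BTBR mouse was lower than every B6 mouse, and the BTBR mice were nearly alike. Signal at this probe was lower in BTBR by 0.59, 1.51-fold (standard error 0.07, limma adjusted p = 6.73e-04). The probe was called within slide 1 (-0.63, adjusted p = 0.00852) and, as the single probe of the set, within slide 2 (-0.55, adjusted p = 0.0198). Among 22 alternatives it was called in 21, with values from -0.70 to -0.55, and not by the rank product.

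The H2-T22 probe at base 768 (mm9 chr17:36178425-36178484) read 9.49, 9.72, 9.65 and 9.56 in B6 and 9.27, 9.20, 8.98 and 9.24 in BTBR, mice 1 to 4. Again no BTBR mouse reached the lowest B6 mouse. It fell by 0.43 (standard error 0.09, limma adjusted p = 0.0146), a call that was lost without B6 mouse 2 (-0.39, adjusted p = 0.053) and without B6 mouse 3 (-0.42, adjusted p = 0.0544). It was called in 16 of 22 alternatives, and not within slide 1 (-0.37, adjusted p = 0.117), within slide 2 (-0.50, adjusted p = 0.0928), with the replicate block (adjusted p = 0.058) or by the rank product. The third H2-T22 probe, at base 1128 (mm9 chr17:36177222-36177429), read 10.58, 10.58, 10.63 and 10.50 in B6 and 10.49, 10.35, 10.21 and 10.43 in BTBR. The strains did not overlap here either, but by a narrow gap, with a difference of -0.20 (standard error 0.07) that was not called (limma adjusted p = 0.182). A further fit used 1 value per gene, the median intensity of its probes on each array. For H2-T22 this is the probe of middle brightness, at base 1128, and not the median of the 3 differences. In that fit H2-T22 was at -0.20 and not called (limma adjusted p = 0.172), while H2-Bl (1.30, adjusted p = 0.0172) and H2-Q2 (0.46, adjusted p = 0.0201) were called, 2 of 9 genes beside 7.77% of all 18399.

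**Figure D2:**
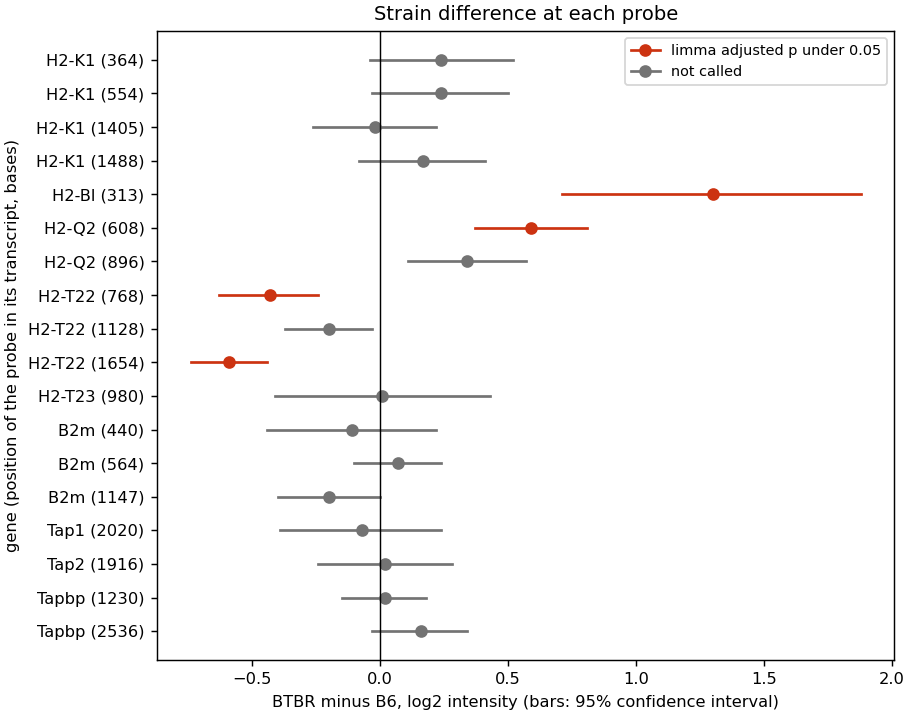
Difference BTBR minus B6 in log2 intensity (x axis) at each of the 18 probes (y axis), with 95% confidence intervals from limma and called probes in red. H2-Bl at 1.30 and H2-Q2 base 608 at 0.59 lie to the right of 0, and H2-T22 bases 1654 and 768 at -0.59 and -0.43 lie to the left.

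The classical heavy chain H2-K1, which presents peptide to CD8 T cells, was measured by 4 probes, and none was called. At base 1488, the brightest, H2-K1 read 13.22, 13.28, 13.41 and 13.11 in B6 and 13.55, 13.48, 13.13 and 13.54 in BTBR, mice 1 to 4. Of the BTBR mice, 3 lay above every B6 mouse and mouse 3 lay among them. The difference was 0.17 (95% confidence interval -0.08 to 0.41, limma adjusted p = 0.477); this probe was printed in 10 spots on each array, whose standard deviation within an array had a median of 0.20. The probes at bases 364 and 554 each differed by 0.24 (95% confidence intervals -0.04 to 0.52 and -0.03 to 0.50, adjusted p = 0.359 and 0.334), and the probe at base 1405 differed by -0.02 (-0.26 to 0.22). The intervals at bases 364, 554 and 1488 leave room for a rise of up to 0.5 or so on the log2 scale and exclude a rise as large as that of H2-Bl.

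The classical gene H2-D1 had no probe of its own name, but 2 probes named H2-L list transcripts that RefSeq assigns to H2-D1. They were looked up after the values were known. The H2-L probe at base 1010 read 12.45, 12.42, 12.67 and 12.37 in B6 and 12.90, 12.80, 12.75 and 12.76 in BTBR, mice 1 to 4. BTBR was higher in every mouse by a narrow margin, a difference of 0.32 (standard error 0.08, limma adjusted p = 0.04). The probe at base 883, which also lists an H2-Q2 transcript, differed by 0.28 (adjusted p = 0.17), and the strains overlapped.

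H2-T23 encodes the heavy chain Qa-1, whose complex with peptide is read by NKG2A receptors. It read 12.06, 12.55, 12.52 and 11.88 in B6 and 12.46, 12.55, 12.05 and 12.01 in BTBR, mice 1 to 4. The strains covered the same range, with a difference of 0.01 (95% confidence interval -0.41 to 0.43, limma adjusted p = 0.982). The sign of this difference turned in 6 of 22 alternatives.

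B2m encodes β2-microglobulin, the light chain that all class I heavy chains of this list need for a stable complex. At base 440, B2m read 13.74, 14.03, 14.07 and 13.87 in B6 and 13.92, 14.05, 13.39 and 13.91 in BTBR, mice 1 to 4. Here 3 BTBR mice lay within the B6 range and mouse 3 lay below it, for a difference of -0.11 (95% confidence interval -0.44 to 0.22, limma adjusted p = 0.754). The other B2m probes were dimmer, with strain means between 8.37 and 8.57. The probe at base 564, with 10 spots on each array, differed by 0.07 (limma adjusted p = 0.68), and the probe at base 1147, which the file ties to a cDNA clone and not to the B2m transcript, differed by -0.20 (standard error 0.09, limma adjusted p = 0.266).

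Of the loading genes, Tap1 and Tap2 encode the chains of the peptide transporter and Tapbp encodes tapasin. Tap1 read 8.63, 8.32, 8.13 and 8.02 in B6 and 8.14, 8.01, 8.32 and 8.35 in BTBR, mice 1 to 4. The strains overlapped throughout, and the difference was -0.07 (95% confidence interval -0.39 to 0.24, limma adjusted p = 0.848), at -0.40 on slide 1 and 0.26 on slide 2. Tap2 differed by 0.02 (-0.24 to 0.28, adjusted p = 0.952). Tapbp differed by 0.02 at base 1230 (-0.15 to 0.18, adjusted p = 0.934) and by 0.16 at base 2536 (-0.03 to 0.34, adjusted p = 0.361), where its level was near 13 in both strains. A change of 1.5-fold, as at H2-Q2, lay outside the intervals of Tap2 and of both Tapbp probes.

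Seen over the tested class I heavy chains with an H2 name, H2-T22 stood on the other side from most. There were 25 tested heavy chain probes of 16 H2 genes, the 11 of the genes above included, and 19 were higher in BTBR and 6 lower, with a median of 0.24. The H2-T24 probe among them cleared background on only 2 of the B6 arrays and entered through BTBR, and without it 18 of 24 were higher, with a median of 0.24. Called were 4 higher and 2 lower, where limma called 3.33% higher and 4.33% lower of all tested probes, whose median was 0.01; near-identical probes among the 25 are counted separately. The Q region had 8 probes of 6 genes, 7 higher and 1 lower, with a median of 0.33 and a range from -0.01 to 0.59. Of the genes named H2-T, the 3 lower probes were those of H2-T22, and without H2-T24 the 4 probes of 2 genes ran from -0.59 to 0.01. H2-Bl was counted apart by its name. Its probe, higher by 1.30, starts 45.0 kb from the brightest H2-T22 probe. H2-Q10, a class I gene known from liver, read 9.73, 9.87, 10.06 and 9.68 at base 497 in B6 and 10.33, 10.30, 10.17 and 10.36 in BTBR. BTBR was higher without overlap, by 0.46 (standard error 0.09, limma adjusted p = 0.0159), and the H2-Q10 probe at base 819 differed by 0.35 (adjusted p = 0.159). Several of these probes list transcripts of more than 1 class I gene, so they are not independent measurements.

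The members other than B2m lie on chromosome 17, and their position was examined for calls in neighboring genes. Between the probes starting at 33517753 and ending at 37987730 of mm9, 14 of 230 tested probes were called (6.09%), 9 higher (3.91%) and 5 lower (2.17%), and without the members 10 of 216 (4.63%). Over all tested probes the share was 7.67%. These counts hold TC1586030, and among probes that passed the filter on dim probes in both strains 13 of 220 in the interval were called (5.91%), 8 higher and 5 lower, beside 7.1% of all such probes. H2-T22 and H2-Bl, whose probes at bases 1654 and 313 start 45.0 kb apart, differed in opposite directions, and the H2-T23 probe beside them differed by 0.01. Leaving out a mouse moved the interval's count by over 1.5 times in 5 of the 8 fits, to 6, 8 and 5 without B6 mouse 1, 2 or 4 and to 8 and 9 without BTBR mouse 1 or 2. As shares these were 2.61%, 3.52%, 2.2%, 3.56% and 4% of the interval's probes, against 5.92%, 5.46%, 5.53%, 6.41% and 6.52% of all probes tested in the same fits.

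**Figure D3:**
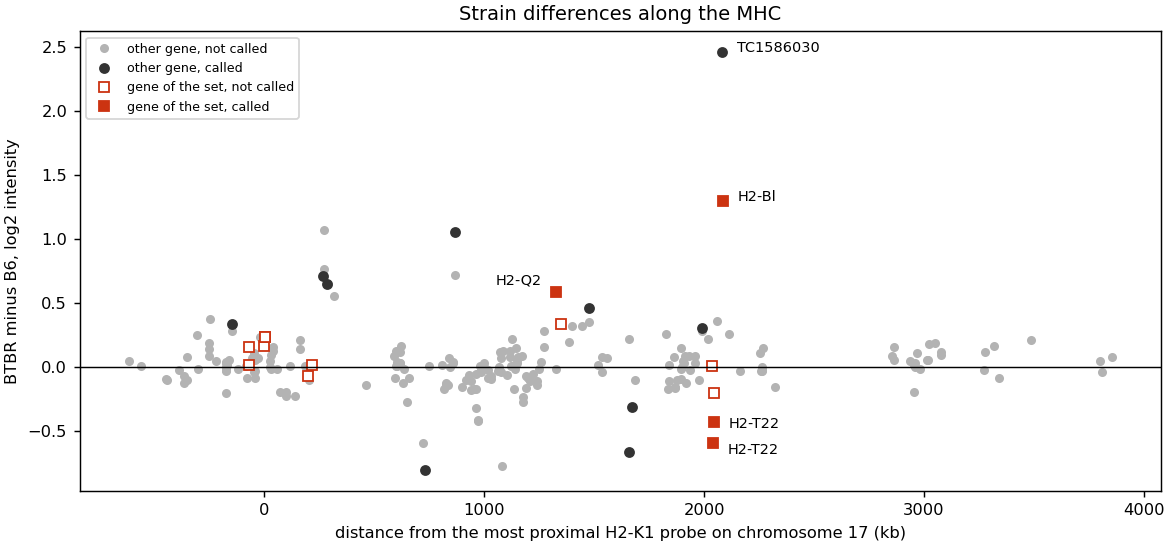
Difference BTBR minus B6 in log2 intensity (y axis) of each of the 230 tested probes in the MHC interval of chromosome 17, by distance in kb from the first H2-K1 probe (x axis), with squares for the genes described here and filled or dark symbols for called probes. H2-Bl lies at 1.30, and H2-T22 at -0.59 and -0.43 lies below 0 close by; TC1586030, labeled at the top, was picked after its values were seen and cleared background on only 2 of the B6 arrays.

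Promoters were read for motifs that class I genes are known to carry. RefSeq (GRCm38.p6) gave 9 promoter windows for 8 of the 10 genes, each from 250 bases before to 50 after the start. The core of an NF-κB site, GGGATTCCC, searched on both strands like the others, occurred in H2-K1 and H2-D1 and in 0.353% of all 32851 windows. The letters TTTCNNTTT, part of interferon-response elements, were present in B2m, H2-T23 and H2-T22 and in 10.6% of all windows, and GTTTCNNTT was present in H2-K1, H2-D1 and H2-T22 and in 5.77%. In H2-T22 these last motifs overlap. None of the 3 was found in the window of H2-Q2, Tap1 or Tapbp. The 250 bases before the start of H2-K1 (chr17:34000348-34000597, minus strand), H2-Q2 (chr17:35342057-35342306, plus strand) and H2-T22 (chr17:36042743-36042992, minus strand) are printed because these genes had no called probe, a probe called higher and probes called lower, with motif matches in capitals; a match is not a binding site.
H2-K1: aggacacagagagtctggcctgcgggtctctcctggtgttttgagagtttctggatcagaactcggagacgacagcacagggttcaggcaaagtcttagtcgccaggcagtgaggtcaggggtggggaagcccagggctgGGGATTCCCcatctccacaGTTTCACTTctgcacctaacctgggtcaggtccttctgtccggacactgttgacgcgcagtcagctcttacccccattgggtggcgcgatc
H2-Q2: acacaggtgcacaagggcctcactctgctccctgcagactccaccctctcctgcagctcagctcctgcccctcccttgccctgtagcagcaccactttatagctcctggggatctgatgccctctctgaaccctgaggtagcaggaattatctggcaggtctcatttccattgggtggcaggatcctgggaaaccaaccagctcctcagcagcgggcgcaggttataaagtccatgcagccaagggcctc
H2-T22: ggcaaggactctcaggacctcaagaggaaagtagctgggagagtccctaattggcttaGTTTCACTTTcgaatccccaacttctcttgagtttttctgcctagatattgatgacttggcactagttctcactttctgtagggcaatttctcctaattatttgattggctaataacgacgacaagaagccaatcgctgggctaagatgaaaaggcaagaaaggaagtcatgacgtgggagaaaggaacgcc

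The rest of the class I pathway was covered by lists of 94 genes, of which 66 were tested, each by its brightest probe. Of these, 39 were higher and 27 lower in BTBR with a median of 0.05, and 4 were called higher and 1 lower. Of the 66, H2-T24, Nlrc5 and Klrd1 passed the filter on dim probes through 1 strain only, and of the other 63 genes 38 were higher and 25 lower, with a median of 0.06. Over all 18399 tested genes 7.90% were called, 3.53% higher and 4.37% lower. The list of other class I heavy chains, which does not hold H2-D4, had 14 tested genes with a median of 0.21 and 12 higher (0.21 and 11 of 13 without H2-T24). Of these 1 was called: Hfe, the class I-like protein that regulates iron uptake, at 0.83 (standard error 0.15, limma adjusted p = 0.0108). A second Hfe probe ran from 8.98 to 9.26 in B6 and from 7.52 to 9.1 in BTBR, where a single array (1 of 4) read it well above background, and is given without a test. Of 9 genes for peptide trimming and loading, 7 were higher, and Calr, the chaperone calreticulin of the loading complex, was called at 0.52 (adjusted p = 0.00849) and at its dimmer probe at 0.69 (adjusted p = 0.0101). None of the 9 proteasome genes was called by limma (4 higher, 5 lower, median 0), 0 had an unadjusted limma p under 0.05 and 0 were called by the rank product. Of 16 regulators 8 were higher, and Irf9, a subunit of the factor that responds to type I interferon, was called at 0.41 (adjusted p = 0.015). Of 14 interferon-induced genes 9 were lower, and Igtp, an interferon-induced GTPase, was called at -0.58 (adjusted p = 0.00591).

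Among the 4 tested receptor genes, Pirb changed most. Pirb encodes an inhibitory receptor for class I molecules that is also found on neurons. It read 9.03, 8.77, 8.94 and 8.72 in B6 and 9.95, 10.48, 10.40 and 10.10 in BTBR, mice 1 to 4. All BTBR mice were higher by more than the spread within either strain, by 1.37 (limma adjusted p = 2.10e-04, standard error 0.13), and the dimmer Pirb probe differed by 1.29 (adjusted p = 7.33e-05). The 2 probes start at bases 2617 and 2627 of the same transcript and overlap, so they are not separate measurements. Cd3e and Cd8b1 differed by 0.04 and 0.06 and were not called.

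**Figure D4:**
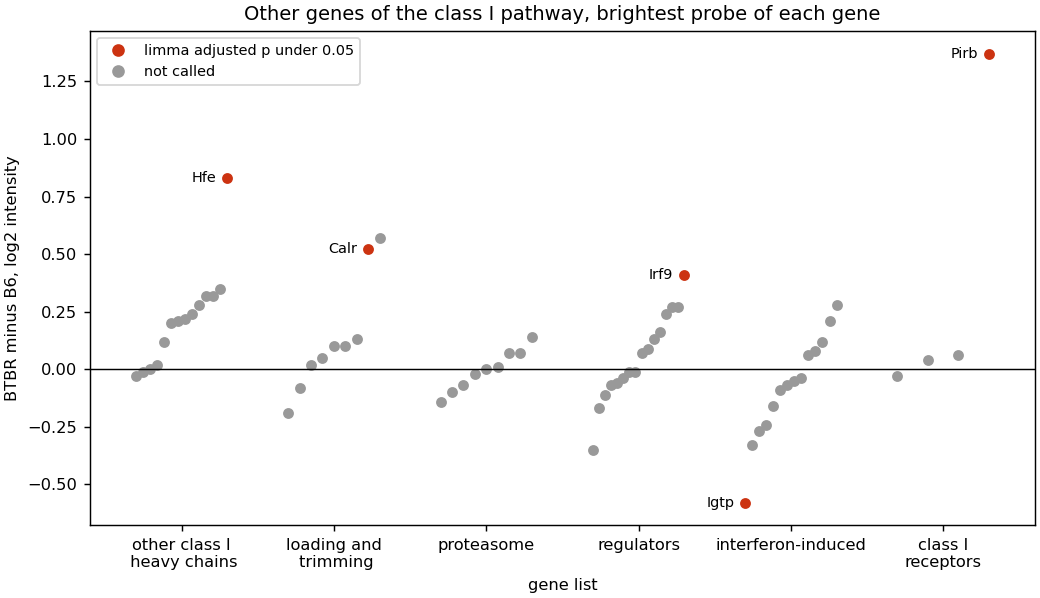
Difference BTBR minus B6 in log2 intensity (y axis) of each of the 66 tested pathway genes by list (x axis), 1 point per gene at its brightest probe and called genes in red. Hfe, Calr, Irf9 and Pirb are called higher and Igtp lower, while the proteasome genes lie between -0.14 and 0.14.

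The level of a gene in whole hippocampus depends on which cells it holds, and fewer cells of a type and less RNA per cell cannot be told apart in these samples. Class I genes are strongly expressed by endothelium and microglia. Against 7.90% of all genes called, the marker lists gave these counts. Of 10 endothelial markers 7 were higher, and Vwf was called (0.97, limma adjusted p = 0.00622); the summed level of the list was 15.33 to 15.72 in B6 and 15.57 to 15.85 in BTBR. Of 11 microglial markers 10 were lower, with Cx3cr1 called at 1.41 and C1qb, Trem2, C1qc and Itgam called lower, and the summed level was 16.23 to 16.30 in B6 and 16.03 to 16.37 in BTBR. Of 7 lymphocyte markers 4 were tested, and Ptprc fell by 0.86, while Cd3d, at means of 7.83 in B6 and 8.21 in BTBR, cleared background on only 2 of the B6 arrays and is given without a test, with summed levels of 10.77 to 10.85 in B6 and 10.53 to 10.78 in BTBR. Summed levels overlapped between the strains for choroid plexus, meninges, blood and hippocampal neuron markers, of which limma called 0 of 5, 0 of 7, 0 of 2 and 0 of 6 (0, 2, 0 and 1 at an unadjusted p under 0.05, and 0, 2, 0 and 1 by the rank product), and not for astrocyte markers (6 tested, 17.05 to 17.18 in B6 and 16.67 to 16.97 in BTBR), with Gfap called at -1.30. Within single slides, however, some of these markers were called: on slide 1 Otx2 of choroid plexus at 1.25 (limma adjusted p = 0.0203) and the neuronal Neurod6, Camk2a and Neurod2 at -1.42, -0.84 and -1.07 (adjusted p = 0.00431, 0.0159 and 0.0471), against -0.29, 0.08, -0.02 and 0.17 on slide 2. The other 4 choroid plexus and 3 neuronal markers were not called on slide 1, and the neuronal Wfs1 went the other way, at 0.28 on slide 1 and called at 1.14 on slide 2 (adjusted p = 0.0388). The summed choroid plexus level was 14.21, 15.06, 15.12 and 13.82 in B6 mice 1 to 4 and 15.88, 15.83, 14.22 and 13.87 in BTBR mice 1 to 4. BTBR mice 1 and 2, the highest for H2-Bl, were thus the highest for choroid plexus markers and, at 17.07 and 17.13, the lowest for neuronal ones, while BTBR mouse 4, with H2-Bl at 9.56, was below 3 of the B6 mice in choroid plexus markers. The part of these cell types in the differences of H2-Bl, H2-Q2 and H2-T22 was not tested.

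Between 56.8% and 71.9% of probes per array read well above background, lowest in B6 mouse 1 and next in BTBR mouse 3 (61.9%), and no probe was saturated. BTBR mouse 3 lay below its strain mean at 16 of the 18 probes and B6 mouse 4 at 17. With B6 mouse 1 and BTBR mouse 3 both left out, an alternative added after seeing the data, 4 probes of the set and 5.97% of all tested probes were called, with H2-Bl at 1.54, H2-Q2 at base 608 at 0.67 and H2-T22 at -0.58 (base 1654) and -0.41 (base 768). Itpr3, the gene whose allele the BTBR name carries, differed by -0.13 (limma adjusted p = 0.71).

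Over the 8 arrays, the probe outside the set that ran most closely with H2-T22 base 1654 was of Asah2 (Pearson r = 0.997), with H2-Q2 base 608 that of Phtf1 (r = 0.992) and with H2-Bl that of Nthl1 (r = 0.991). These correlations hold the strain difference itself and share arrays and normalization, and they are given as a description.

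**Figure D5:**
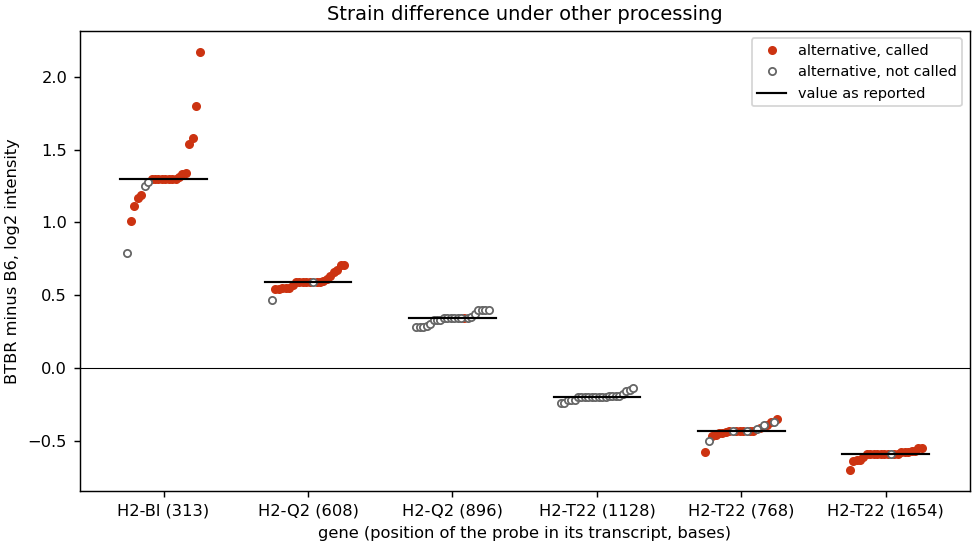
Difference BTBR minus B6 in log2 intensity (y axis) of the H2-Bl, H2-Q2 and H2-T22 probes (x axis) under each of 22 other ways of processing, with red points where the probe was called and a bar at the value as reported. No point of H2-Bl or H2-Q2 lies below 0 and none of H2-T22 above it, and the points reuse the same arrays.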

How the data were processed

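Hippocampal RNA of 4 B6 and 4 BTBR mice was measured on single-color Agilent arrays with 45018 spots. Spot intensity was deposited by the authors as read from Cy3-labeled RNA by the scanner software, Feature Extraction of Agilent (version 10.7.3.1 in the headers, 9.1 in the submitters' processing notes). A matrix of log2 values, which the authors had background subtracted, quantile normalized and reduced to the median of replicate spots, served as an alternative. Coordinates and gene names are those of the array files (mm9), and transcripts, gene types and promoters are from RefSeq (GRCm38.p6).

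From the mean intensity of a spot its median local background was taken off, with a floor of 0.5; after adding 50, quantile normalization was applied on the log2 scale. Replicate spots were summarized by their median, spots with outlier flags were left out, and probes well above background on at least 75% of the arrays of a strain were kept, 27982 of 41174. Strain was fitted with limma 3.58.1 in R 4.3.3 and p was adjusted by Benjamini-Hochberg over all tested probes. A pathway gene was read by its brightest probe. Sequences were compared and figures drawn with Python 3.11.15, pandas 2.3.3 and matplotlib 3.10.9. The scripts were tested on simulated data. The number of arrays limits the precision, and p-values measure the spread between mice.

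The members, the lists and the rule for named genes (every probe of the members, up to 3 called genes per list, the probe most like each called member, and Itpr3) were chosen with earlier results of these data known. The alternatives tried were processed signal scaled to its 75th percentile, normexp, median centring, the deposited matrix, other filters, each mouse left out, replicate number or slide as a block, each slide alone, trended robust limma, the rank product that the study's methods name (written out here with 100 permutations, called at a pfp of 0.05 or less), gene medians over probes, and an adjusted p under 0.01. The qRT-PCR data were not used here.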

Additional observations from a re-analysis of the deposited data

Results flagged for a closer look

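At the brightest H2-K1 probe (base 1488), BTBR mouse 3 read 13.13 against 13.48 to 13.55 in the other BTBR mice, and its distance from the nearest of them was over Dixon's 95% limit for 4 samples. The limit is passed by chance in about 1 of 20 groups, and 36 groups (18 probes in each strain) were examined. Without this mouse the H2-K1 difference at this probe was 0.26 (limma adjusted p = 0.102). The same mouse was below its strain mean at 16 of the 18 probes; its part in the H2-K1 value is otherwise not tested.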

How the results depend on the processing

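H2-Bl, H2-Q2 and H2-T22 kept their directions under all 22 alternatives, which reuse the same arrays. Where the strains do not overlap, leaving out a mouse can hardly turn a sign, so this is a description and not separate evidence. Limma on slide 2 alone called 1038 probes in all, 1 of the set, 1 pathway gene and 2 in the chromosome 17 interval. The rank product called 1099, 1 of the set (H2-Bl) and 2 pathway genes. Medians over the probes of a gene called 2 of 9 genes of the set (7.77% of all), and a limma adjusted p under 0.01 left 1206 probes in all. Of the set, H2-Q2 at base 608 and H2-T22 at base 1654 stayed under 0.01. H2-Bl (limma adjusted p = 0.0156) and H2-T22 at base 768 (limma adjusted p = 0.0146) did not. Neither setting is counted among the 22 alternatives. Deviations of same-numbered mice correlated at over 0.1 in 2 of 4 pairs (r from -0.142 to 0.511), so the numbers were not taken as pairs; with the replicate block 1660 probes in all (5.93%), 3 pathway genes and 7 probes in the interval were called, and H2-T22 at base 768 was not (-0.43, adjusted p = 0.058). The strain by slide interaction was called by limma at 0 probes, with 2765 (9.88%) at an unadjusted p under 0.05. With each mouse left out the interval held 5 to 15 called probes, and without both arrays of lowest detection 9. Signs turned only at uncalled probes. H2-K1 at base 1405 gave 0.04 with the processed signal, 0.13 on slide 1, 0.08 without both low arrays and -0.10 to 0.08 with a mouse left out. H2-T23 gave -0.05 with median centring, -0.17 on slide 2 and -0.11 to 0.11 with a mouse left out. B2m at base 440 gave 0.10 on slide 1 and -0.19 to 0.03 with a mouse left out. Tap1 gave 0.26 on slide 2, 0.01 without both low arrays and -0.16 to 0.05 with a mouse left out. Tap2 gave -0.05 on slide 2 and -0.05 to 0.10 with a mouse left out, and Tapbp at base 1230 gave -0.06 on slide 2 and -0.01 to 0.07. The cause of these shifts was not tested. Signal over background limits the dim probes: Tap1, Tap2, the B2m probes at bases 564 and 1147 and, in B6, H2-Bl, whose difference ran from 0.79 (slide 2 alone) to 2.17 (processed signal) over the 22 alternatives.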
